A study of Homo sapiens with 12 samples.

Results

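The repression screen measured how pairs of protein domains, held together at a reporter gene, change the share of cells found in the bound fraction. It comprised 4 of the 12 libraries of the series, a bound and an unbound fraction in each of 2 replicates, chosen by their label. The cells were K562, an established human leukaemia line, with the reporter pJT039 and a lentiviral library in which rTetR, a DNA-binding protein that binds its sites when doxycycline is present, was fused to 2 domains in a fixed order. Each replicate was infected separately at a coverage of about 600x, selected with blasticidin for 7 days and given 1000 ng/mL doxycycline for 5 days from day 8. All 4 libraries shared the cell line, the reporter, the selection and doxycycline, so the reference was internal, namely the pairs of 2 control domains. Bound was read as the fraction with the reporter on; the sources used here do not give the method of separation. Of 10000 possible ordered pairs of 100 domains, 9956 were read in these libraries and 9062 had enough reads (at least 5 in a fraction and 50 in both, in each replicate). Of the domains 21 were controls (11 tiles of dystrophin, DMD, and 10 random sequences) and 79 were not. The labels mention 6 repressor domains with design errors without naming them, so the 79 may include faulty constructs, and counts over them and weak effects carry that limit.

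Transcriptional repression domains work mainly by bringing in other proteins. KRAB domains bind the scaffold TRIM28, which gathers a histone H3 lysine 9 methyltransferase and HP1 proteins, chromo shadow domains of HP1 proteins dimerise and bind partner proteins, Polycomb proteins act through histone H2A ubiquitination and histone H3 lysine 27 methylation, and SUMO conjugation recruits corepressors. A tethered pair places such a domain beside a neighbour within the same protein, so the screen reads a domain together with its context.

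The libraries held between 6647483 and 24305100 read pairs, with medians of 195 to 776 per domain pair. The score of a pair is its log2 bound over unbound share, centred in each replicate on the median of control pairs, so a score of 0 is the level of inert pairs and a negative score means fewer cells in the bound fraction. Control pairs took 14.1% and 16.3% of the bound reads but 6.93% and 5.53% of the unbound reads in replicates 1 and 2. Scores of both replicates correlated across the 9062 pairs with Pearson r = 0.80 and Spearman rho = 0.82, a description only, since pairs share domains and libraries. Replicate 2 had the lower scores (median difference from replicate 1 of -0.34), and 263 pairs had fewer than 5 bound reads in it against 0 pairs in replicate 1. The scores of such pairs rest on a floor of 5 reads.

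Low scores were the rule in this screen. Of 9062 pairs, edgeR's quasi-likelihood test called 5179 lower (57.2%) and 44 higher (0.486%) than control pairs at an adjusted p of 0.05. These counts depend on taking control pairs as 0. With libraries scaled to total counts 2808 pairs were lower and 2589 higher, because that scaling shifted all scores by a median of 1.85. All values below are relative to control pairs unless another scaling is named.

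Next to control partners, 58 of the 79 domains fell (73.4%) and 4 rose (5.06%). Of the 79, 42 domains (53.2%) fell to -1 or lower, which is at least a 2-fold lower ratio of bound to unbound reads. These 42 are called silencing domains here. Effects of single domains come from summed reads, so control partners with many reads weigh more than others. The lists of domains named below are small, and their counts of falling domains stand beside the 73.4% of all 79. With total-count scaling 26 domains were lower and 43 higher, and the WW, SH3, homeodomain, coactivator and variant KRAB domains named below as lower turned positive. So did MYBA (0.51), NOTC2 (0.96), SMCA2 (0.53), KMT2B (0.0212), CREM (0.38), TERF1 (0.80) and the KRAB domain of ZFP28 (1.35), whereas the KRAB variants and the SUMO and Polycomb domains stayed negative. All 42 were below 0 in both replicates, and 37 of them were lower in replicate 2. The controls themselves, measured in the same way, had a median of 0.00 and an SD of 0.32, or 0.14 without DMD tile 31, a control that stood at -1.31. Random controls lay between -0.08 and 0.15.

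KRAB domains gave the strongest silencing. The variant P21506, the accession of ZNF10 (chromosome 12, 133130627 to 133159465, GRCh38.p14), stood at -4.29 in replicate 1 and -5.17 in replicate 2. Its effect was -4.73 (SE 0.20, edgeR adjusted p = 1.42e-17), a 26.5-fold lower ratio of bound to unbound reads. M0QYP0 stood at -4.41 and -5.02 and Q3KP31 at -4.05 and -4.80. The KRAB domain of ZFP28 was far from these, with -0.41 and -0.59 (effect -0.50, SE 0.14), so all 4 domains of this list fell but 3 reached the silencing class. The ZFP28 call was lost with DMD tiles alone as controls, without replicate 2 and with limma.

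Domains from variant KRAB zinc finger proteins, whose KRAB regions diverge from the TRIM28-binding form, spread to both sides of 0. Of 5 domains 4 fell, beside 73.4% of all 79, and 1 rose. The DUF3669 domain of ZN777 (gene ZNF777) stood at -1.64 and -1.76 and that of ZN473, a KRAB domain (gene ZNF473), at -1.02 and -1.30. Both domains of NIZP1 (gene ZNF496), its C2HR motif (-0.68 and -0.58) and its KRAB domain (-0.38 and -0.40), fell without reaching -1, and their calls were lost with DMD tiles alone and with limma. By contrast ZN597, whose KRAB domain comes from ZNF597 (chromosome 16, 3432414 to 3443504), rose, with 0.79 and 0.28 (effect 0.53, SE 0.16; edgeR adjusted p = 0.00429). That call was lost without replicate 1 (0.28) and in the second position alone (0.03).

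Readers of methylated histone H3 and their partners followed. Of 4 domains in the HP1 and chromodomain list 3 fell, beside 73.4% of all 79, and these 3 all passed -1. The chromo shadow domain of the HP1 protein CBX1 (chromosome 17, 48070059 to 48101478) stood at -3.60 and -3.85. The chromodomain of CDYL2, a chromodomain Y-like protein, stood at -3.41 and -3.72. MPP8 (gene MPHOSPH8), a chromodomain protein of the HUSH silencing complex, stood at -2.95 and -2.81. The fourth, the DUF1087 region of the remodeller CHD3, stood at -0.37 and -0.02 and was not called (effect -0.19, SE 0.19).

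The 2 domains of the SUMO and ubiquitin list and the 3 of the Polycomb list all fell, beside 73.4% of all 79 domains. SUMO3, a small ubiquitin-like modifier (chromosome 21, 44805617 to 44818062), stood at -3.85 and -3.74, a 13.9-fold lower ratio of bound to unbound reads. The Cyt-b5 domain of HERC2, a ubiquitin ligase, stood at -2.72 and -3.48. Of the 3 Polycomb domains, YAF2, a subunit of variant Polycomb repressive complex 1 (chromosome 12, 42157104 to 42238248), stood at -3.43 and -3.88. The RING-type domain of PCGF2 stood at -2.23 and -2.31 and the SAM domain of SCMH1, which forms polymers in Polycomb proteins, at -1.98 and -2.36. The YAF2 values lay below those of both other Polycomb domains in each replicate.

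The HMG box of TOX stood at -2.47 and -2.61. The helix-loop-helix domain of ID2, which blocks DNA binding of its dimer partners, gave an effect of -2.34 (SE 0.18). All 3 basic leucine zippers of the CREB family list fell, beside 73.4% of all 79 domains, JDP2 to -2.05 (SE 0.42) and CREM to -1.47 (SE 0.23). ATF1 (SE 0.36) stood at -1.44 in replicate 1 and -2.56 in replicate 2, a gap of -1.12. Of the homeodomains HXA13 fell to -1.23 (SE 0.33) and GSX1 to -0.66 (SE 0.18), and both calls were lost without replicate 1 and with DMD tiles alone. SSX2, whose SSXRD region is a repression domain, had the widest gap of all silencing domains between replicates, -1.43 against -3.18.

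Domains of activator proteins were among those that fell. Beside a share of 73.4% over all domains, all 3 in the transactivation domain list were called, FOXO3 at -1.93 (SE 0.16), MYBA (gene MYBL1) at -1.34 (SE 0.15) and NOTC2 (gene NOTCH2) at -0.89 (SE 0.14). The NOTC2 entry is a domain of the Notch family (34 residues from residue 1440) and not itself a transactivation domain. In the activation screen the same domains of FOXO3 and MYBA stood at 3.73 and 4.33, and that of NOTC2 at 0.97. NOTC2 was the nearest domain outside the silencing class, and TERF1, a telomere-binding protein, at -1.05 (SE 0.17) was the nearest inside it, so these neighbours do not differ beyond their errors. Of the coactivators, NCOA2 fell to -1.29 (SE 0.15) and CRTC2 to -0.33 (SE 0.15), the latter only just past the threshold (edgeR adjusted p = 0.0451) and lost without either replicate.

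Protein interaction modules had small effects. Of 5 WW domains 3 fell, to between -0.73 (KIBRA) and -0.41 (APBB1), of 4 SH3 domains 1 fell (BIN1, -0.82, SE 0.14), and none of either list reached -1. The APBB1 call was lost under each replicate left out and with DESeq2.

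Members of activating chromatin complexes divided. In the SWI/SNF list the QLQ region of SMCA2, an ATPase (gene SMARCA2), fell to -1.32 (SE 0.15), whereas DPF1 (chromosome 19, 38211006 to 38229695) rose with 0.75 and 0.54 (effect 0.65, SE 0.15; edgeR adjusted p = 2.68e-04) and SMRC2 (gene SMARCC2) rose with 0.37 in both replicates. In the list of histone H3 lysine 4 methyltransferase complexes, the CXXC zinc finger of KMT2B fell to -1.83 (SE 0.19), DPY30 rose with 0.58 and 0.37, and the PHD finger of CXXC1 stood at 0.42 and 0.43 without being called (adjusted p = 0.0789). Of the 4 higher calls, DPF1 was the only one kept without replicate 1, and none was kept with limma on the replicate scores.

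Silencer tiles are stretches of proteins that the files give by an Ensembl identifier and a tile number, without pairing the identifier with a gene name. Of 23 tiles 16 fell, a share near the 73.4% of all 79 domains, 15 of them past -1 (median of these -2.87), and none rose. By summed reads the lowest were ENSG00000100307 tile 18, with -3.68 and -3.94, and ENSG00000163602 tile 11, with -3.49 and -4.05. By the median pair score with control partners the order was another. There ENSG00000163602 tile 11 stood at -4.32, ENSG00000102974 tile 12 at -4.07, ENSG00000111642 tile 38 at -3.97, ENSG00000155090 tile 12 at -3.95 and ENSG00000100307 tile 18 at -3.82. The 7 tiles that were not called lay between -0.28 and 0.29, and the weakest of the 15 silencing tiles stood at -1.38. The class limits set part of this gap, and the other tile that fell, ENSG00000088305 tile 10, stood within it at -0.83.

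The scores of the pairs followed these single-domain classes. For pairs with a control this was largely given in advance, since the classes were defined by those same pairs. Pairs of 2 controls had a median of 0.01, with 27 of 416 called lower (6.49%) and 1 higher. A control beside a silencing domain had a median of -2.92, with 76.0% of 1566 pairs called lower, and a silencing domain beside a domain that is neither gave -2.82 (73.2% of 2821 lower). A second silencing domain lowered the median further, to -3.82, with 87.2% of 1443 pairs lower. Pairs of 2 domains that are neither silencing nor control lay between, at -0.44 with 32.7% of 1329 lower. Beside a control such a domain gave -0.04 and 13.8%, a level that the definition of its class holds up. Over 8962 pairs the identity of the first domain accounted for 37.1% of the variance of the mean scores, that of the second for 34.7%, and both added together for 71.9%.

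Scores of the 2 orders of a pair were correlated. Across 2521 pairs of different domains measured in both orders, r was 0.82 and the mean scores differed by a median of 0.58. Single replicate scores of a pair differed by a median of 0.72. Means of 2 replicates vary less than single scores, so these 2 medians are not on a par. The difference between orders had the same sign in both replicates for 58.9% of the pairs. No domain was called for a difference between its first and second position next to controls (0 of 79, 0.0%, in each direction; 0 by limma as well, and 1 to 2 with other control sets, without the replicate block or without same-domain pairs), and 12 passed an unadjusted p of 0.05, 6 in each direction. The lowest adjusted p was 0.0622. Chosen after the values were seen, CHD3 had the widest gap among the 5 with the lowest p, with means of -0.83 as the first and 0.53 as the second domain (difference -1.47, SE 0.41; edgeR adjusted p = 0.0796). ID2 was lower in the second position, -3.42 against -2.17 (difference 0.96, SE 0.27; edgeR adjusted p = 0.0796).

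The score of a silencing domain varied with its partner, also among control partners. For each partner, reads of its pairs with all 42 silencing domains were summed and set against all control partners of the same domains. Among 37 partners that are neither silencing nor control, 10 raised the bound share of silencing domains (27.0%) and 20 lowered it (54.1%) by edgeR. The control partners measured in this way spread from -0.80 to 1.91 (SD 0.73, n = 21), so the calls must be read against that spread. By these summed reads ZN597 (1.93) lay just above the highest control (1.91), within its error, and 3 partners lay below every control. Of the 20 lower calls 17 lay within the range of the controls, and leaving out the 3 control partners with the highest values as reference left 8 lower calls and gave 15 higher calls.

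The partners with the highest values formed a group apart. ZN597, the variant KRAB domain, stood at 2.10 in replicate 1 and 1.77 in replicate 2 (1.93, SE 0.16; edgeR adjusted p = 3.45e-12). DPF1 stood at 1.89 and 1.74 (1.81, SE 0.12), and ENSG00000174197 tile 238, a silencer tile with no effect of its own (0.12), at 1.82 and 1.81. The SH3 domain of the tyrosine kinase BTK (chromosome X, 101349450 to 101390796) stood at 2.01 and 1.60, and DPY30 at 1.77 and 1.48. Random control 89, a random sequence, stood among them at 1.79 and 2.03, and DMD tile 130 at 1.72 and 1.48. Next came DMD tile 297 (1.11), CXXC1 (1.10), the homeodomain of GSX1 (0.97), the WW domain of the ubiquitin ligase ITCH (0.78) and SMRC2 (0.73). By the median shift over single silencing domains the order was another, DPY30 at 2.45, DPF1 at 2.44, BTK at 2.40, random control 89 at 2.32, ENSG00000174197 tile 238 at 2.15 and ZN597 at 1.61, with ZN597 at 0.83 as the second domain (11 silencing domains). The replicates of all of these lay on the same side of 0, and the other 18 controls lay between -0.80 and 0.30.

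Beside these partners nearly all silencing domains scored higher than with controls. Next to DPF1, 41 of 42 silencing domains scored above their own median with control partners, and next to DPY30 40 of 42, whereas for the 18 other control partners this count ran from 4 to 24. At or above -1 were 30 of 42 silencing domains next to DPF1, 31 of 41 next to BTK, 29 of 42 next to ENSG00000174197 tile 238, 30 of 42 next to DPY30, 20 of 39 next to ZN597 and 31 of 42 next to random control 89. Next to each of the 18 other control partners it was 0 to 8 (median 1.5) of 36 to 42. Low counts next to these 18 were largely given in advance, since silencing domains and their medians were defined by control partners. The 18 are also those left once the controls with the highest values were set aside, among them DMD tile 130 (20 of 42) and DMD tile 297 (17 of 42). Over the 5 tested partners with the highest values, which were picked after seeing them, the median score of the 42 domains was -0.40, against -2.93 with control partners.

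Beside the same 5 partners 5 silencing domains stayed at or below -2. The KRAB variants had medians of -4.73 (P21506), -4.53 (M0QYP0) and -3.50 (Q3KP31) there, against -4.84, -4.69 and -4.63 with controls. SUMO3 stood at -3.53 against -4.35 and CBX1 at -2.46 against -4.26. Of these KRAB P21506 and KRAB M0QYP0 moved least, and KRAB Q3KP31, SUMO3 and CBX1 moved up by 1.12, 0.82 and 1.80. Other strong silencers did not stay low, ENSG00000100307 tile 18 moving to -1.11 from -3.82 and ENSG00000163602 tile 11 to -1.36 from -4.32. Further domains moved to the level of control pairs, among them MPP8 (0.35 against -3.91), TOX (0.13 against -2.96), PCGF2 (0.43 against -2.60) and SCMH1 (-0.14 against -2.88). YAF2 lay between, at -0.91 against -4.28, and HERC2 at -0.78 against -3.77. NCOA2 was the only silencing domain with a lower median beside these partners, -1.63 against -1.39.

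Single pairs show the contrast read by read, here between the control partners with the lowest (205) and the highest (89) values, so that it is wider than one against the median control. Chosen after the values were seen, random control 205 + MPP8 had 712 bound and 834 unbound reads in replicate 1 and 306 and 2109 in replicate 2, scores of -4.00 and -4.29. Random control 89 in its place gave random control 89 + MPP8 with 2837 and 215 reads, then 1975 and 308, scores of -0.05 and 1.17. DPF1 + MPP8 scored 0.93 and -0.32, and BTK + MPP8 0.21 and -0.23. PCGF2, with a median of -2.60 over control partners, gave -3.27 and -3.74 for PCGF2 + random control 205 and -0.07 and 0.62 for PCGF2 + random control 89.

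KRAB pairs scored low in the same company. The pair random control 205 + KRAB P21506 scored -4.46 and -4.73, random control 89 + KRAB P21506 -4.11 and -5.67, and DPF1 + KRAB P21506 -4.20 and -5.54. ZN597 + KRAB P21506 was higher, at -3.66 and -3.17, and KRAB Q3KP31 stood at -2.63 beside ENSG00000174197 tile 238. For CBX1 the scores beside random control 89 differed by order, a difference that was not tested. The pair random control 89 + CBX1 scored -0.29 and -0.02, and CBX1 + random control 89 -1.32 and -1.32, whereas random control 205 + CBX1 scored -4.45 in both replicates.

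The same partners were examined beside 5 activating domains in the activation screen of the series, where a raised score means activation. All 5 also belong to the silencing domains of the repression screen, so silencing and activating domains are not separate sets here. In the activation screen the unbound library of replicate 2 was shallow, with 612999 read pairs and a median of 28 per domain pair. Replicate 1 had 34106267 and 1797. Scores of that replicate are therefore coarse and more often set by the floor of 5 reads. With control partners those domains had a median score of 3.87. Random control 89 shifted their scores by a median of -3.86, ENSG00000174197 tile 238 by -3.72, DMD tile 297 by -3.11, GSX1 by -2.65 and DMD tile 130 by -1.64, each with all 5 activating domains below their medians. ZN597 (0.07), SMRC2 (0.10), ITCH (-0.02), DPY30 (-0.05), BTK (-0.20), CXXC1 (-0.23) and DPF1 (-0.71) shifted them little, and the 46 partners with lower values in the repression screen ranged from -2.32 to 1.68. Partners that raised silencing pairs thus came with and without lower scores beside activating domains. ZN597 and BTK also raised the reporter by themselves in the activation screen (1.77 and 1.12), whereas DPF1 stood at 0.05, CXXC1 at 0.19, ENSG00000174197 tile 238 at 0.23 and DPY30 at 0.42. KIBRA (2.08), CRTC2 (1.55) and ANM2 (1.31) stood as high there but had values of -0.51, -0.32 and -0.03 as partners of silencing domains.

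Random control 89 weighed on the reference. It held 16.5% and 18.3% of the bound reads but 4.76% and 4.51% of the unbound reads of all pairs of a control with a silencing domain. DMD tile 297 held 9.24% and 9.91% of the bound reads against 4.43% of the unbound reads in each replicate. Random control 205 leaned the other way, with 7.69% and 7.61% of the bound reads against 13.8% and 12.9% of the unbound reads.

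At the other end, the partners with the lowest values stood apart from the controls by little or not at all. The transactivation domain of STAT2 stood at -0.82 and -1.05 (-0.93, SE 0.11; edgeR adjusted p = 4.53e-09), a silencer tile at -0.88 and the kinase extension of KS6B2 (gene RPS6KB2) at -0.84, all just below random control 205, the lowest control (-0.80). BIN1 (-0.72) and the PHD finger of PYGO1 (-0.66) lay within the controls. By the median shift over single silencing domains, STAT2 (-0.37), that tile (-0.38), KS6B2 (-0.32) and PYGO1 (-0.09) lay within the controls. Random control 205 stood at -0.43 there and DMD tile 259, the lowest control, at -0.60. BIN1 (-0.62) and ENSG00000085224 tile 242 (-0.63) lay just below it. The calls of STAT2, KS6B2, BIN1 and PYGO1 were lost with limma on replicate scores.

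Single pairs of different domains were ranked by the bound of the log2 value nearest to 0 (2 SE), which favours well measured pairs over the lowest scores. Of the 8 lowest by that rule 6 held KRAB P21506 or SUMO3. KRAB P21506 + ANM2, with the SH3 domain of an arginine methyltransferase (gene PRMT2), had 70 bound and 314 unbound reads in replicate 1 and 3 and 541 in replicate 2 (-7.11, SE 0.89; edgeR adjusted p = 6.51e-05). SUMO3 + WWP2, with a WW domain of a ubiquitin ligase, stood at -5.74 (SE 0.45), from 266 and 741 reads in replicate 1 and 35 and 965 in replicate 2. The pairs KRAB P21506 + SCMH1 (-6.25, SE 0.73), KRAB P21506 + random control 297 (-6.19, SE 0.52) and SUMO3 + random control 372 (-6.40, SE 0.64) belonged to the same set of 8, as did CREM + KRAB P21506 (-6.83, SE 0.98), KRAB Q3KP31 + random control 257 (-6.12, SE 0.68) and ATF1 with a silencer tile (-6.96, SE 1.02). The replicate 2 scores lay lower in all 8 of these pairs.

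The highest pairs held partners of the raising group. CXXC1 + random control 385 scored 1.95 and 2.47 (2.21, SE 0.66; edgeR adjusted p = 0.0141), from 1112 bound and 21 unbound reads in replicate 1. ABL1 + DPF1 scored 1.71 and 1.65, DPY30 + PYGO1 1.31 and 1.88, BTK + TERF1 2.26 and 1.47, and ZN597 + DMD tile 357 1.78 and 0.90. The last, DMD tile 255 + random control 372, holds no such partner and rests on 9 and 16 unbound reads (2.74, SE 1.01). Each of these 6 lost its call without at least 1 of the replicates.

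Low scores also occurred among pairs of domains that were not called alone. From 17 domains not called next to controls, 267 pairs were tested, of which 16 were lower (5.99%) and 2 higher, against 57.2% and 0.486% over all pairs and 6.49% and 0.240% among control pairs. The share of lower calls was thus near that of control pairs. PYGO1, whose PHD finger binds methylated histone H3, was in 8 of the 16. PYGO1 + ABL1 scored -2.34 and -1.35 (-1.85, SE 0.37; edgeR adjusted p = 0.0014), and ABL1 + PYGO1, in the opposite order, -1.30 in both replicates. PYGO1 + WBP4, with a WW domain of a splicing factor, scored -1.42 and -1.44, and CHD3 + ITCH -1.53 and -2.70. These pairs were picked as the lowest after the values were seen.

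The score of each pair without a control was also set against the sum of the median scores of its domains next to controls, each in its position. Of 5577 such pairs limma called 157 below the sum (2.82%) and 1083 above it (19.4%). With DMD tiles alone as controls, or with the stronger single domain in place of the sum, 0 pairs were called on either side, so the medians are described here and single calls rest on the choice of expectation.

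Pairs of silencing domains fell short of the sum. Their median score was -3.82 against an expected -5.87, a deviation of 2.16, with 2.13 in replicate 1 and 2.31 in replicate 2. The depth of a pair and the floor of 5 reads set how low its score can go. For 227 of 1437 of these pairs (15.8%) the sum lay below that limit in at least 1 replicate, so that a shortfall was given in advance. That share counts only pairs barred by depth. The 5th percentile of the scores in this class was -5.65, so few pairs of any depth scored as low as the median sum. In this class 114 pairs had fewer than 5 bound reads in replicate 2. Against the stronger single domain alone the median deviation was -0.06. KRAB P21506 + KRAB Q3KP31 scored -3.75 against an expected -9.69 (deviation 5.94, SE 0.47; limma adjusted p = 0.0187). Its sum in replicate 2, -10.42, was below the lowest score its reads allow, -8.89. MPP8 + SSX2 went to 1.09 against -7.69, but from 4 and 7 unbound reads and with a lowest possible score of -5.47 in replicate 2, and SSX2 + YAF2 to 1.35 from 5 and 2.

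Pairs of domains that are neither silencing nor control leaned the other way, below the sum. Their median deviation was -0.36 (-0.40 in replicate 1 and -0.41 in replicate 2), with 117 of 1329 called below (8.80%) and 7 above. CACO1 + KS6B2, a zinc finger of CALCOCO1 beside the kinase extension of RPS6KB2, had 4073 bound and 3961 unbound reads in replicate 1 and 1946 and 9068 in replicate 2, a score of -3.73 where the sum was -0.58 (deviation -3.16, SE 0.38; limma adjusted p = 0.0187). IKKA + ZFP28 scored -3.25 where the sum was -0.33, and STAT2 + KS6B2 -3.70 where it was -0.82. DPF1 + CXXC1, a pair of domains above 0 by themselves, scored -2.02 where the sum was 1.21. KMT2B + CHD3, with a silencing domain, scored -4.36 where it was -0.79, from 17 and 13 bound reads.

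Over all their partners that are neither silencing nor control, CACO1 had a median deviation of -1.20 (19 of 72 pairs called below, 1 above), KS6B2 of -1.08 (29 of 72 below), NOTC2 of -1.07 (15 of 72), NIZP1 KRAB of -1.03 (19 of 71), KIBRA of -0.99 (17 of 69), STAT2 of -0.90 (13 of 71) and ZFP28 of -0.88 (18 of 72). Each of these had fallen next to controls without reaching -1, but so had BIN1 and a silencer tile, with median deviations of -0.05 and -0.06. Pairs of a silencing domain with a domain of neither class deviated by a median of 0.17, with 300 of 2811 pairs above and 38 below.

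Pairs of a domain with itself held 16.6% to 24.8% of the reads of each library and had lower scores than the domain next to controls in every class. The medians of these pair scores were -3.90 for the 42 silencing domains, -1.37 for the 37 that are neither and -0.85 for the 21 controls. The effects next to controls, from summed reads, had medians of -2.37, -0.22 and 0.00, but that is another measure. By pair scores the 42 silencing domains had a median of -2.93 with control partners. Pairs of a control with a domain of neither class had a median of -0.04, and pairs of 2 controls 0.01. Against 57.2% of all pairs, edgeR called 41 of the 42, 13 of the 37 and 1 of the 21 lower, the last being DMD tile 31 with itself (-3.22). The other 20 controls with themselves were not called, and random control 89 with itself stood at 0.33.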

How the data were processed

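The deposited values are raw counts, read pairs summed per ordered domain pair after the authors trimmed 30 bases at each end, per the series' design text, and aligned each position separately with Bowtie2 (no version stated). The authors' filter and floor of 5 reads were not yet applied in these files and were applied here.

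Bound and unbound counts were tested with edgeR 4.0.16 (R 4.3.3, quasi-likelihood) in 1 fit of all 12 libraries, with a block per screen and replicate, since both fractions come from the same separately infected cells. Residual degrees of freedom numbered 3. Scaling used trimmed means over control pairs, and p-values were adjusted by Benjamini-Hochberg over all features tested. Domain and partner effects used summed counts. Deviations were tested with limma 3.58.1 on 2 replicate scores, and DESeq2 1.42.0 was an alternative. The tests were also run on simulated counts with 1 fixed dispersion for all pairs. That check does not show how they hold at the replicate spread of these data. Tables used Python 3.11.15, pandas 2.3.3 and numpy 2.4.6.

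Named domains were the 12 lowest, all that rose, all members of lists of up to 5 and the lowest and highest 3 of larger lists; named pairs were the 8 lowest and 6 highest called by the bound nearest 0. Silencer tiles keep their identifiers, and few are named. Domains and lists were chosen with earlier results of these data known. Gene names and coordinates are RefSeq's (GRCh38.p14). The labels name 20 controls, the files 21, all of which were used. No molecular identifiers are stated, so errors cover counting and replicate spread only, and reads are not independent molecules. For 1 domain no values are reported here.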

Additional observations from a re-analysis of the deposited data

How the results depend on the processing

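With total-count scaling, which moved the median of all pairs by 1.85, 2808 pairs were called lower and 2589 higher, 26 domains lower and 43 higher, and 6 partners higher; with trimmed means over all pairs the counts were 2693, 2856, 22 and 44. Domain effects that changed sign with total-count scaling became CREM 0.38, KMT2B 0.0212, CHD3 1.66, ZFP28 1.35, BIN1 1.02, ABL1 1.68, SMCA2 0.53, KIBRA 1.12, WWP2 1.19, APBB1 1.44, WBP4 1.71, ITCH 1.80, NCOA2 0.56, CRTC2 1.52, HXA13 0.62, GSX1 1.19, TERF1 0.80, CACO1 1.06, APC16 1.76, MTA3 1.74, PYGO1 1.63, MYBA 0.51, NOTC2 0.96, ZN777 0.15, ZN473 0.69, NIZP1 C2HR 1.22 and NIZP1 KRAB 1.46. With trimmed means over all pairs they became CREM 0.51, KMT2B 0.16, CHD3 1.79, ZFP28 1.48, BIN1 1.16, ABL1 1.81, SMCA2 0.66, KIBRA 1.25, WWP2 1.32, APBB1 1.58, WBP4 1.85, ITCH 1.93, NCOA2 0.70, CRTC2 1.66, HXA13 0.75, GSX1 1.32, TERF1 0.94, CACO1 1.19, APC16 1.89, MTA3 1.87, PYGO1 1.77, FOXO3 0.0527, MYBA 0.64, NOTC2 1.09, ZN777 0.28, ZN473 0.82, NIZP1 C2HR 1.35 and NIZP1 KRAB 1.59.

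With DMD tiles alone as controls 131 pairs were called higher, 1 position effect was called, 0 pairs were called below or above the sum, and the deviation medians were -0.46 (pairs of neither class), -0.00964 (a silencing domain with one of neither class, a changed sign) and 1.70 (pairs of silencing domains). ABL1 became 0.16, WBP4 0.0039, ITCH 0.19, CRTC2 0.0273 and MTA3 0.0241. With random sequences alone 19 pairs were higher and 1 position effect was called, the medians were -0.30, 0.34 and 2.50, and ANM2 became -0.0387 and ENSG00000174197 tile 238 -0.0206. Without DMD tile 31, 1 position effect was called and the median of the first class was -0.39. Without the 3 control partners of highest effect, an alternative chosen after seeing the data, 8 partners were lower, 99 pairs lay below the sum, and the medians were -0.34, 0.32 and 2.40.

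With the stronger effect as the expectation 0 pairs were called on either side, and the medians were 0.0381 with 1 silencing domain and -0.0588 with 2, the latter a changed sign. At least 200 reads gave 315 pairs below the sum and a first median of -0.35. Leaving out same-domain pairs gave 1 position effect in each direction and -0.32. Without the replicate block 74 pairs were higher and 1 position effect was called; beyond that APBB1 lost its call. The repression libraries alone gave 22 higher pairs and 2 higher domains, DESeq2 74 higher pairs, and limma on replicate scores 0 higher domains, 2 lower partners and an ANM2 of -0.0047. In the second position alone 1 domain rose, CHD3 became 0.62 and ANM2 -0.31; in the first ITCH became 0.0652 and a silencer tile -0.0529.

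Leaving out a replicate gave 17 to 20 higher pairs, 1 to 5 higher domains, deviation medians of -0.41 to -0.40 and 2.13 to 2.31, ANM2 at -0.19 to 0.27 and that tile at -0.0308 to 0.22. Of all comparisons of a named result with an alternative, 1179 kept direction and call, 103 lost the call, 25 gained it and 69 changed sign. The cause of these changes was not tested. Depth limits pairs with few bound reads in replicate 2.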
